A study of Mus musculus with 6 samples.

Results

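miR-146a and miR-146b are a pair of microRNAs (miRNAs) from separate genes that carry the same seed, the stretch near the 5′ end by which a miRNA finds its messenger RNAs. They were followed across 6 miRNA libraries made from extracellular vesicles of mouse brain tissue, membrane-bound particles that cells release. The members were taken by name: of 1926 miRNAs listed in the authors' deposited RPM table (RPM are reads scaled so that every library has the same total), 4 have a name that starts with miR-146a or miR-146b, which are the 5p and 3p strands of both hairpins. Of these 4, 3 were detected, and 2 reached a mean of 10 RPM: miR-146a-5p and miR-146b-5p. Over all names, 775 miRNAs were detected and 290 reached that level.

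The libraries fall into 2 groups of 3. One group is labelled SE, vesicles of mice that had gone through status epilepticus, a prolonged seizure, and the other CON, vesicles of matched control mice. The series title gives 24 hr. Strain, age, sex, the agent used to induce seizures, genotype, and whether a library came from 1 brain or a pool were not stated in the sources at hand. Nothing in the labels ties a replicate to an animal of its own, so a p-value here speaks of the spread among these 6 libraries, part of which may be technical.

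Background on the pair comes from other work. miR-146a is transcribed under NF-kB, the transcription factor of innate immune signalling. It represses Traf6 and Irak1, proteins that carry the signal of Toll-like and interleukin-1 receptors, so it is described as a brake on the pathway that induces it. miR-146b shares that seed and those targets and has also been described as a product of interleukin-10 and STAT3 signalling. In brain, miR-146a has been studied in microglia and reactive astrocytes and in tissue of rodents and people with epilepsy.

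The mature sequences show how close the guide strands are, and why their reads depend on the last few bases. They are printed 5′ to 3′ from RefSeq (GRCm38.p6), with the seed, bases 2 to 8, in capitals.
miR-146a-5p: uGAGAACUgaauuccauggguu
miR-146b-5p: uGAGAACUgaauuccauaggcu
Both are 22 bases long and are identical at 20 positions. Counted from 1 at the 5′ end of miR-146a-5p, they differ by G18A and U21C, both outside the seed. Of 1679 mature mouse sequences in the RefSeq table, these 2 alone hold the seed GAGAACU at bases 2 to 8, and no other of the same length lies within 3 differing bases of either. How the authors' counting treated mismatches is not stated in any source at hand, so a read that ends early or carries an error near its 3′ end could be counted under either name.

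The hairpins, with both mature strands in capitals, show where each guide strand lies beside its 3p strand.
Mir146: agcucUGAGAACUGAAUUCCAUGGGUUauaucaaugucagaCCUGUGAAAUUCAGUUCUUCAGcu
Mir146b: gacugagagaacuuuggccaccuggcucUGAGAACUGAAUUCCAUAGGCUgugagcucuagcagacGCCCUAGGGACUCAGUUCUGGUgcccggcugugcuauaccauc
Mir146, which gives miR-146a, lies on the minus strand at chr11:43374397-43374461 (GRCm38.p6), where GENCODE release M21 lists no other overlapping gene. Mir146b lies on the plus strand at chr19:46342762-46342870, inside the protein-coding gene Mfsd13a (chr19:46341121-46375252, plus strand) and outside its exons. The 3p strands, both of 22 bases, match at 4 positions when aligned end to end without a shift. That count misses a stretch that both 3p strands hold at offset positions, UCAGUUCU, so it does not measure their likeness in full. The submitters' processing notes name mm9, so these coordinates are of a later build than theirs.

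Depth and row order bear on every value below. The libraries held 6016533 to 10845434 miRNA reads in the SE group and 5482407 to 6504884 in the CON group. The rows of the CON columns do not follow the miRNA names in the authors' deposited RPM table, and they were put back with the help of the base means in the fold change table that the authors deposited. The members were selected on their names, but the rows that supply their CON values were chosen by these base means, measured values that include the members' own reads. The comparisons of SE with CON are therefore given as a description of these 6 libraries. For miR-146a-5p 1 CON row matched, and the next closest row was 0.122% away. For miR-146b-5p 1 row matched as well, and the next closest was 1.47% away, while both matches lay within a relative difference of 4.87e-10. Directions follow the column labels. No value in these files tests which set of columns is which, and the fold change table takes the columns labelled SE as its reference. If the names SE and CON were exchanged between the 2 sets of columns, every direction given here would turn, those of miR-146a-5p, miR-146b-5p, miR-155-5p and miR-21a-5p included; the contrast between the strands of the pair would stay, with its sign turned.

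miR-146a-5p stood higher in the SE libraries on average and miR-146b-5p lower, so the order of the 2 strands was turned between the groups. miR-146a-5p averaged 33.5 ± 3.69 RPM in SE against 21.6 ± 7.20 RPM in CON libraries (SD, n = 3 each), a ratio of 1.55. miR-146b-5p averaged 24.8 ± 4.54 RPM in SE against 40.1 ± 2.60 RPM in CON libraries (SD, n = 3 each), a ratio of 0.619. Neither passed the test over all 290 miRNAs.

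miR-146a-5p had 34.9, 36.2 and 29.3 RPM in SE replicates 1, 2 and 3, from 379, 218 and 196 reads. It had 29.7, 15.9 and 19.2 RPM in CON replicates 1, 2 and 3, from 166, 87 and 125 reads. CON replicate 1 stood above SE replicate 3, so the groups overlapped, while CON replicates 2 and 3 lay below all 3 SE libraries. The 95% Poisson intervals, which cover counting error only, were 25.3 to 33.7 RPM for SE replicate 3 and 25.3 to 34.5 RPM for CON replicate 1, and these 2 libraries could not be told apart at this depth. The overlap depended on the scaling. With the reads divided by the authors' size factors, miR-146a-5p had 214, 253 and 219 normalized reads in SE replicates 1, 2 and 3, against 181, 106 and 121 in CON replicates 1, 2 and 3, and the groups did not overlap.

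miR-146b-5p had 27.9, 19.6 and 26.9 RPM in SE replicates 1, 2 and 3, from 303, 118 and 180 reads. It had 37.7, 39.8 and 42.9 RPM in CON replicates 1, 2 and 3, from 211, 218 and 279 reads. All 3 SE libraries lay below all 3 CON libraries, also with the authors' size factors, where the normalized reads were 171, 137 and 201 in SE and 230, 265 and 270 in CON replicates 1, 2 and 3. Of the 2 members, 1 had groups that did not overlap in RPM, and it was lower in SE. Of all 290 miRNAs, 14.8% had groups that did not overlap, 13.4% lower and 1.38% higher in SE.

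**Figure D1:**
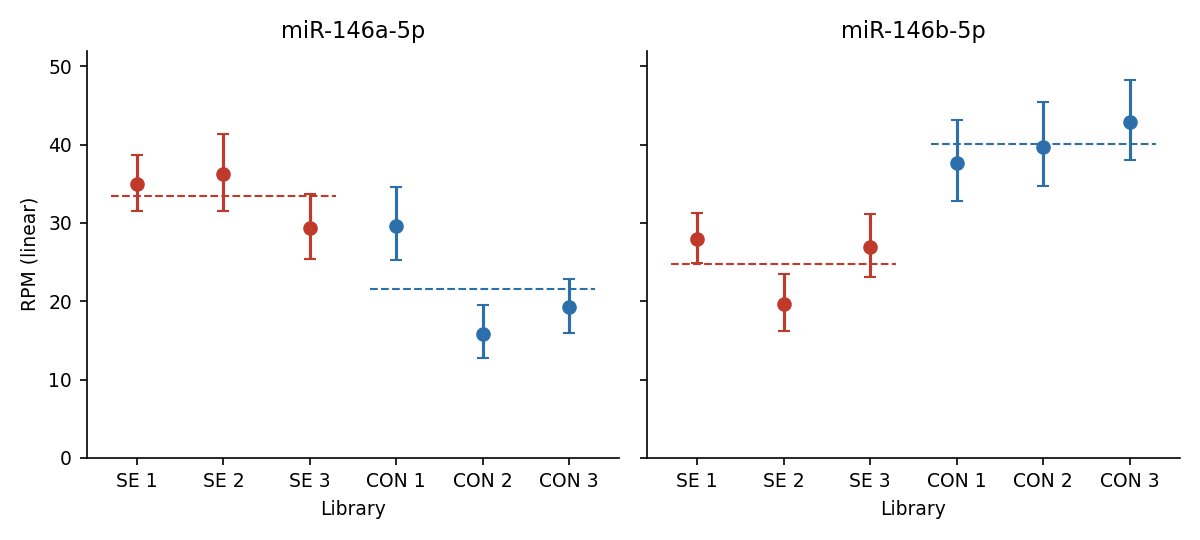
RPM of miR-146a-5p (left panel) and miR-146b-5p (right panel) in each library, with SE libraries in red and CON libraries in blue; bars are 95% Poisson intervals and dashed lines group means. miR-146a-5p in CON replicate 1, at 29.7 RPM, lies among the SE values, while every SE value of miR-146b-5p lies below the lowest CON value of 37.7 RPM.

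Limma-trend, fitted to log2(RPM + 1), on which folds of scarce miRNAs come out too small, gave miR-146a-5p a log2 fold change of 0.65, SE over CON (standard error 0.26, 95% interval 0.11 to 1.19), with a limma adjusted p of 0.385. It gave miR-146b-5p -0.69 (standard error 0.23, 95% interval -1.17 to -0.20), with a limma adjusted p of 0.233. At an adjusted p under 0.05, 0 of the 2 members and 1.03% of the 290 miRNAs were called, 0.345% as higher and 0.69% as lower in SE. At an unadjusted p under 0.05, both members were among the 9.31% of miRNAs that met it, with limma p of 0.0212 and 0.00825. Without CON replicate 2, the lowest miR-146a-5p value, its log2 fold change was 0.46, and without CON replicate 1, the highest CON value, it was 0.90.

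In the authors' deposited table of fold changes, miR-146a-5p has a log2 fold change of -0.75 (standard error 0.29) and an adjusted p of 0.499, and miR-146b-5p has 0.59 (standard error 0.23) and the same adjusted p. That table does not name its direction. Set against the columns, a miRNA with a positive value is higher in CON, so its signs run opposite to the fold changes given here. Neither strand is among the 1.04% of 772 miRNAs called in the authors' deposited table. This is not independent evidence, since its base means placed the CON rows.

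**Figure D2:**
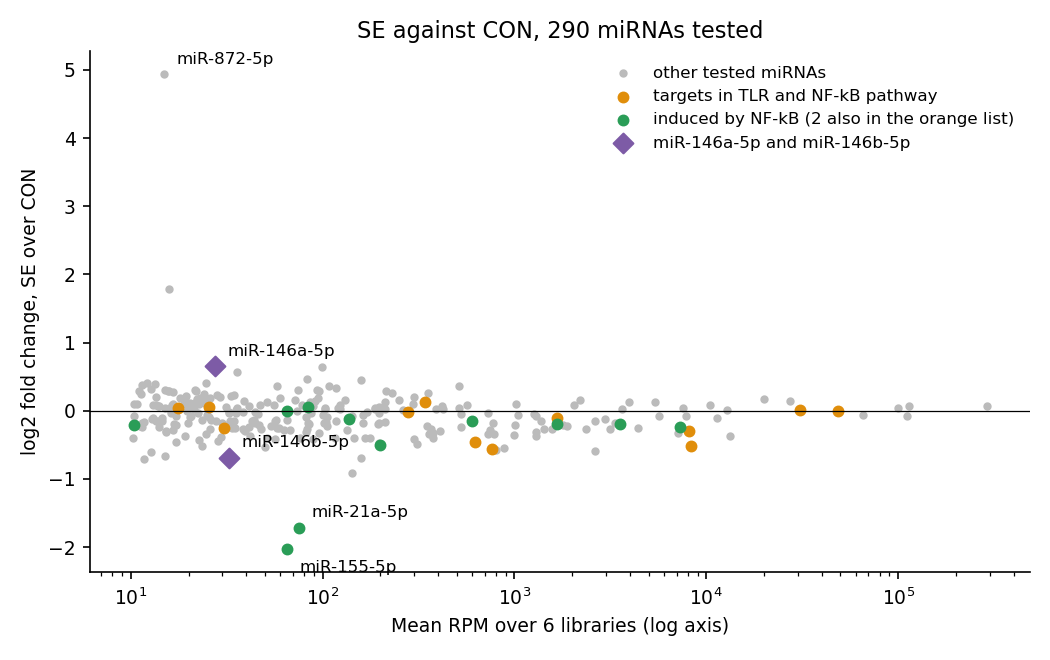
Log2 fold change, SE over CON, by limma-trend on log2(RPM + 1) against mean RPM (log axis) for the 290 tested miRNAs, 1 point each. miR-146a-5p at 0.65 and miR-146b-5p at -0.69 (purple diamonds) lie on opposite sides of 0 at similar mean levels, far nearer to 0 than miR-155-5p at -2.02 and miR-21a-5p at -1.72.

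The 2 guide strands share a seed and a length, so their reads can be set against each other within a library, where depth and scaling cancel. miR-146a-5p made up 55.6%, 64.9% and 52.1% of the reads of both in SE replicates 1, 2 and 3. It made up 44.0%, 28.5% and 30.9% in CON replicates 1, 2 and 3. miR-146a-5p had more reads than miR-146b-5p in all 3 SE libraries and fewer in all 3 CON libraries. These are shares of reads, and whether the 2 strands were captured equally well was not tested.

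The mean share of miR-146a-5p was 57.5% ± 6.60 in SE and 34.5% ± 8.34 in CON libraries (SD, n = 3 each). Exact 95% binomial intervals were 46.9% to 57.3% for SE replicate 3, the lowest SE share, and 39.0% to 49.2% for CON replicate 1, the highest CON share. The intervals of these 2 libraries, the closest of the groups, overlap. The log2 ratio of miR-146a-5p to miR-146b-5p averaged 0.44 ± 0.40 in SE and -0.94 ± 0.52 in CON libraries (SD, n = 3 each), a difference of 1.39. No p is given for it, because the pair was chosen with the opposite signs known.

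Their sum, the level of both strands with this seed, differed between the groups by less than its spread. It was 62.9, 55.8 and 56.2 RPM in SE replicates 1, 2 and 3, and 67.4, 55.6 and 62.1 RPM in CON replicates 1, 2 and 3. The mean was 58.3 ± 3.96 RPM in SE against 61.7 ± 5.89 RPM in CON libraries (SD, n = 3 each). The SE values all lay within the CON range. The difference of the means, SE minus CON, was -3.40 RPM.

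**Figure D3:**
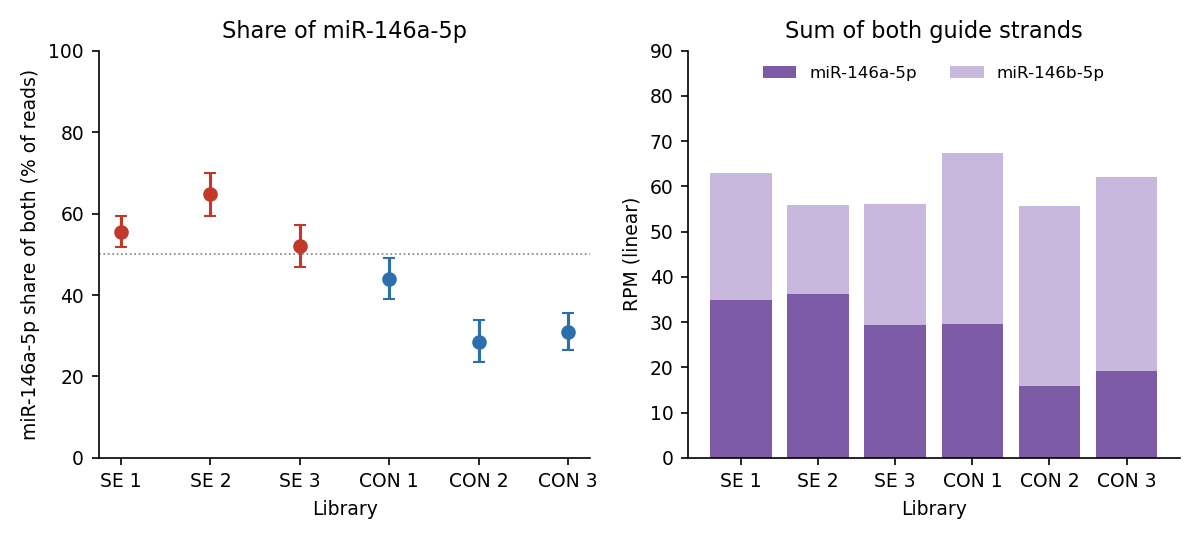
Left, the share of miR-146a-5p in the reads of both guide strands per library (SE red, CON blue) with exact 95% binomial intervals, and a dotted line at equal shares; right, the RPM of both strands stacked. The SE shares run from 52.1% to 64.9% and the CON shares from 28.5% to 44.0%, while the stacked bars reach 55.6 to 67.4 RPM.

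The other close relatives that were compared did not show a difference of that size. Among the tested miRNAs, 27 pairs of equal length, made of 26 miRNAs, share a seed and differ at no more than 3 bases. Relatives of unequal length, and entries in which the authors merged several miRNAs, were not compared. Between SE and CON the log2 ratio within a library of the 27 pairs differed by a median of 0.07 in either direction. The miR-146 pair, at 1.39, had the largest difference of the 27, and the next was miR-100-5p over miR-99a-5p at 0.29. The ratios of SE and CON libraries did not overlap for 11.1% of the pairs, 3 of 27: miR-146a-5p over miR-146b-5p, miR-100-5p over miR-99a-5p, and let-7g-5p over let-7i-5p, which differed by -0.05. Most of these pairs are let-7 members with far more reads, whose ratios carry less counting error. Of the 3 pairs whose lesser strand averaged at most 50 RPM, the other 2 were miR-17-5p over miR-20a-5p at 0.03 and miR-181a-1-3p over miR-181c-3p at -0.01. The pairs share members and were listed after the miR-146 values were known, so this is a description with no test.

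**Figure D4:**
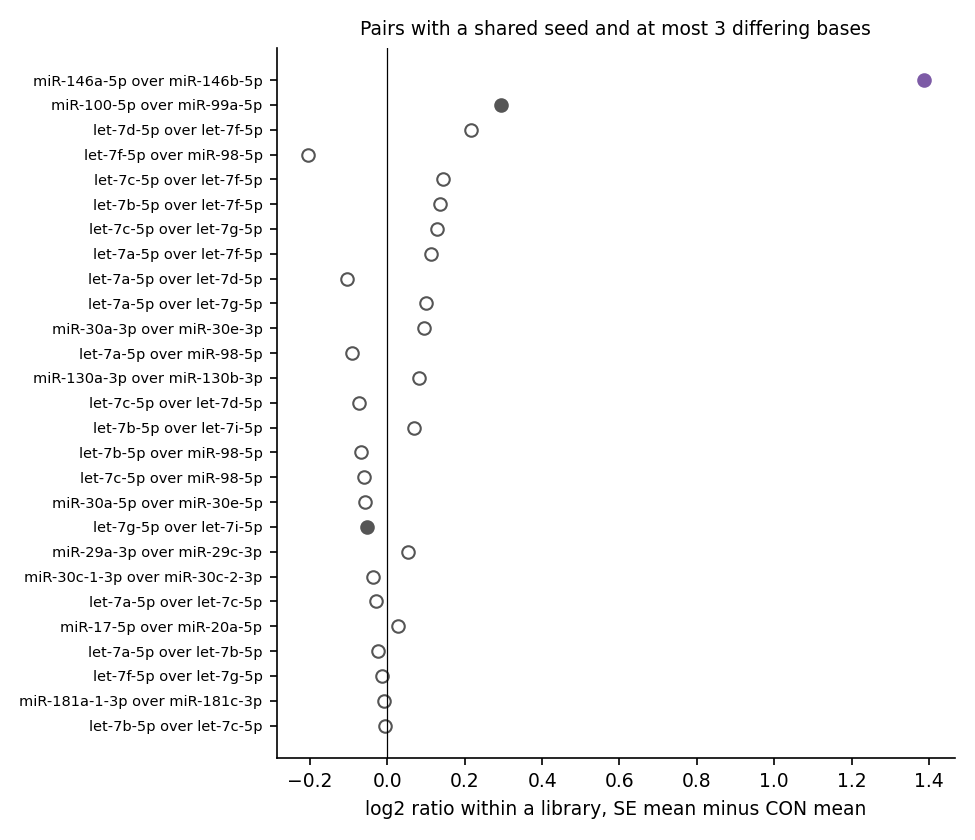
Difference of the log2 ratio within a library, SE mean minus CON mean, for the 27 pairs of tested miRNAs of equal length that share a seed and differ at no more than 3 bases. Filled points are pairs whose SE and CON ratios do not overlap, and the miR-146 pair (purple) lies at 1.39, against 0.29 for the next.

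The passenger strands were nearly absent. miR-146b-3p had 2 reads in SE replicate 3 and 0 in the other SE libraries and in every CON library. miR-146a-3p had 0 reads in all 6 libraries; its CON zeros follow from the row matching, since every CON row above 0 belonged to another name. Against 793 pooled reads of miR-146a-5p in SE and 378 in CON libraries, the 5p strand was at least 264-fold and at least 126-fold higher than the 3p strand, with a floor of 3 reads over the group. For miR-146b the pooled reads of all 6 libraries were 1309 for the 5p and 2 for the 3p strand, a 3p share of 0.153% with an exact 95% upper bound of 0.550%. Other hairpins at this level also had such a lead of one arm. Of 93 hairpins whose leading arm averaged 10 to 100 RPM, 28 had at most 2 reads of the lesser arm in all. Both miR-146 hairpins are counted in the 93 and in the 28. The median share of the lesser arm over the 93 was 2.56%. Values at 0 may hide a single read, because the lowest value above 0 in each library stood for 2 reads.

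Within groups the 2 guide strands varied differently. The coefficient of variation of miR-146a-5p was 11.0% in SE and 33.4% in CON libraries, where counting alone gives 6.41% and 9.22%. That of miR-146b-5p was 18.3% in SE and 6.49% in CON libraries, where counting alone gives 7.60% and 6.56%. The CON values of miR-146b-5p thus spread no more than counting error, and the CON values of miR-146a-5p spread by more than it, with a highest value 1.87 times the lowest. The pooled SD on the log2 scale was 0.33 for miR-146a-5p and 0.20 for miR-146b-5p, against a median of 0.25 over the 290 miRNAs.

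Both strands were minor components of the vesicle libraries. By mean RPM over the 6 libraries, miR-146b-5p was the 193rd and miR-146a-5p the 205th most abundant miRNA. The miRNAs directly above and below miR-146a-5p were miR-3473a, at 26.4 ± 4.21 RPM in SE libraries, against 29.3 ± 1.67 RPM in CON libraries, and miR-665-3p, at 25.02 ± 10.2 RPM in SE libraries, against 27.1 ± 8.11 RPM in CON libraries (SD, n = 3 each). Directly above and below miR-146b-5p stood miR-935, at 31.7 ± 3.93 RPM in SE libraries, against 33.7 ± 12.8 RPM in CON libraries, and miR-212-3p, at 24.2 ± 2.64 RPM in SE libraries, against 40.7 ± 6.46 RPM in CON libraries (SD, n = 3 each). These neighbours were chosen by their mean over all 6 libraries, so their nearness to the member in that mean follows from the choice. miR-212-3p, a product of CREB signalling in neurons, had a fold change close to that of miR-146b-5p, -0.72 with a limma adjusted p of 0.231, and did not pass.

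Among other miRNAs linked to NF-kB, the 2 that passed the test were lower in SE, and none was higher. Of 11 miRNAs described as induced by NF-kB, with the miR-146 pair left out, all were tested, 2 fell in SE libraries and 0 rose by limma, where 1.03% of all miRNAs were called. The 2 that fell were miR-155-5p, which promotes inflammatory signalling in macrophages and microglia, at -2.02 with a limma adjusted p of 4.36e-06, and miR-21a-5p, induced in reactive glia, at -1.72 with a limma adjusted p of 1.05e-04. The median log2 fold change of the 11 was -0.19, against -0.07 over the 290 miRNAs. Of the 11, 10 had a negative and 1 a positive value, and the positive one was miR-222-3p at 0.06. miR-146a-5p, at 0.65, lay above every one of them in the direction SE over CON; with the column names exchanged it would lie below every one. The authors' deposited table, whose signs run the other way, has -0.75 for miR-146a-5p and 1.96 for miR-155-5p.

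miR-155-5p had 28.2, 26.3 and 21.4 RPM in SE replicates 1, 2 and 3, and 99.4, 111 and 105 RPM in CON replicates 1, 2 and 3. It is often measured together with miR-146a-5p, with which it shares NF-kB as an inducer. In SE libraries the 2 stood at similar levels, 25.3 ± 3.52 RPM for miR-155-5p and 33.5 ± 3.69 RPM for miR-146a-5p (SD, n = 3 each), while in CON libraries miR-155-5p stood at 105 ± 5.84 RPM and miR-146a-5p at 21.6 ± 7.20 RPM (SD, n = 3 each).

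Of 17 miRNAs described to act on parts of the Toll-like receptor and NF-kB pathway, again without the miR-146 pair, 14 were tested and 0 passed by limma, against 1.03% of all 290 miRNAs. At an unadjusted p under 0.05 there were 3 of the 14, against 9.31% of all 290. The median log2 fold change was -0.15, with 4 positive and 10 negative values. The most abundant were let-7i-5p, a regulator of TLR4 in human cells, at -0.0035, let-7e-5p/7k, counted by the authors as 1 entry, at 0.0045, miR-29a-3p, of a family described to act on the NF-kB inhibitor TNFAIP3 in human cells, at -0.51, and miR-16-5p at -0.29. miR-29a-3p and miR-29c-3p were called when CON replicate 2 was left out, which gave a count of 2. In that setting calls rose over the whole table as well, to 6 of 294 miRNAs, against 3 of 290 with every library.

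Markers of the cells from which the pair could come were read beside it. The microglia and leukocyte list holds 7 miRNAs, of which 5 were tested, 1, miR-155-5p, fell and 0 rose, where 0.69% of all 290 miRNAs were called as lower and 0.345% as higher in SE. Without miR-146a-5p its members summed to 664 to 885 RPM in SE against 947 to 1089 RPM in CON libraries, and without miR-155-5p as well to 638 to 856 RPM in SE against 848 to 983 RPM in CON libraries. The defining myeloid miRNAs were low in both groups and 0 of them were at 0: miR-142a-3p averaged 9.68 ± 4.41 RPM in SE against 10.3 ± 5.34 RPM in CON libraries, and miR-223-3p averaged 6.24 ± 2.35 RPM in SE against 6.76 ± 4.16 RPM in CON libraries (SD, n = 3 each). Most of these sums is miR-342-3p, at 676 ± 112 RPM in SE against 819 ± 68.6 RPM in CON libraries (SD, n = 3 each), which overlapped between the groups and did not pass (limma adjusted p = 0.703). The other tested members, miR-142a-5p at -0.29 and miR-150-5p at -0.04 on the log2 scale, did not pass either. The 4 miRNAs listed for astrocytes summed to 10789 to 11478 RPM in SE against 12332 to 16225 RPM in CON libraries, and 0 of the 4 passed. Whether these 4 are particular to astrocytes was not tested, so their sum is not a measure of astrocyte vesicles. Most of that sum is miR-29a-3p, at 6849 ± 417 RPM in SE against 9877 ± 1921 RPM in CON libraries (SD, n = 3 each). It was the one member whose groups did not overlap, and 13.4% of all 290 miRNAs likewise lay lower in SE without overlap. The groups of miR-143-3p, miR-24-3p and miR-449a-5p overlapped. The 4 neuron markers summed to 16847 to 18923 RPM in SE against 18178 to 23756 RPM in CON libraries, which overlap, and 0 of the 4 passed. Their directions were mixed. miR-124-3p was at 0.16 on the log2 scale, while miR-128-3p was at -0.33, miR-9-5p at -0.24 and miR-129-5p at -0.14. Each of the 4 overlapped between the groups. The part of these lists in the values of the pair was not tested. In such bulk libraries fewer vesicles from a cell type and less of a miRNA per vesicle cannot be told apart.

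The remaining markers describe what else the preparations held. Of the 3 red cell entries, miR-486a-5p/486b-5p averaged 24.8 ± 7.71 RPM in SE against 25.4 ± 5.43 RPM in CON libraries (SD, n = 3 each). The other 2 were at or near 0: miR-144-3p had no read in any library, and miR-451a had none in SE. In CON miR-451a averaged 0.307 RPM, all of it from 6 reads in CON replicate 3. The 2 endothelial strands of miR-126a summed to 4355 to 5240 RPM in SE against 4817 to 6715 RPM in CON libraries. The 2 oligodendrocyte markers summed to 214 to 291 RPM in SE against 269 to 424 RPM in CON libraries, nearly all of it miR-338-3p. miR-338-3p overlapped between the groups and did not pass (limma adjusted p = 0.498). miR-219a-5p was nearly absent and not tested, with 3, 0 and 4 reads in SE replicates 1, 2 and 3 and 0 in every CON library. miR-204-5p, abundant in choroid plexus, ran at 257 to 561 RPM in SE against 293 to 450 RPM in CON libraries. miR-122-5p of the liver stood at 89.4 to 114 RPM in SE against 150 to 233 RPM in CON libraries, with a limma adjusted p of 0.0504. Its call turned on the setting. It was called with a pseudocount of 5 RPM, with the robust form of limma-trend and without CON replicate 3, and not under the other settings.

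The profile of each strand over the 6 libraries had different nearest neighbours. Likeness was the root-mean-square difference of log2(RPM + 1) after each miRNA was centred on its mean, and the median over all other tested miRNAs was 0.50 for miR-146a-5p and 0.42 for miR-146b-5p. Closest to miR-146b-5p were miR-1843b-3p at 0.17, miR-376b-3p at 0.18, miR-191-5p at 0.18, miR-99b-5p at 0.19 and miR-99a-5p at 0.19. All 5 had SE values below all CON values, as 13.4% of all 290 miRNAs did, and their log2 fold changes ran from -0.61 to -0.34. Likeness to a strand selects miRNAs that share its direction, so the signs of these neighbours follow from the choice. Closest to miR-146a-5p were miR-125b-2-3p at 0.26, miR-148b-3p at 0.28, miR-3064-5p at 0.29, miR-346-5p at 0.29 and miR-30c-5p at 0.29, with log2 fold changes of 0.07 to 0.22. These were less close than the neighbours of miR-146b-5p. The 2 strands were far from each other, at 0.76, where miR-146b-5p stood 282nd of 289 in likeness to miR-146a-5p. This is a description over 6 libraries that share depth and scaling.

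**Figure D5:**
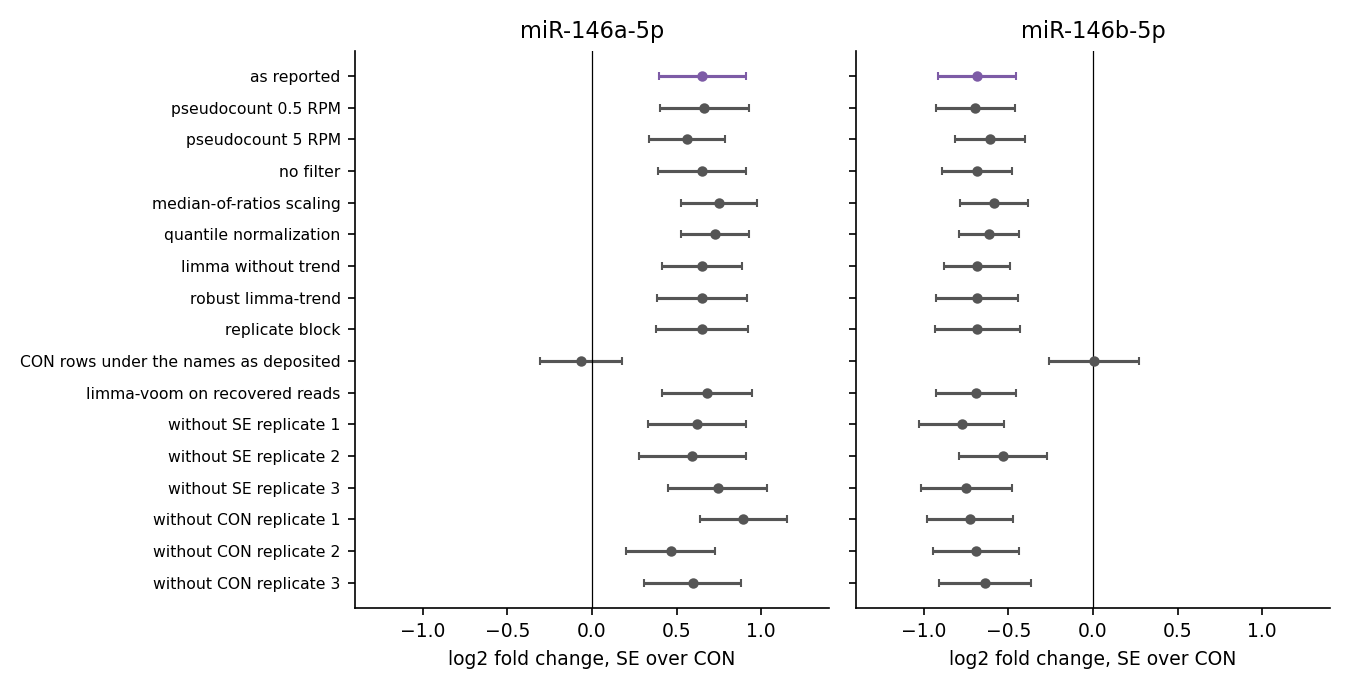
Log2 fold change, SE over CON, of miR-146a-5p (left) and miR-146b-5p (right) as reported (purple) and under each alternative (grey), with bars of 1 standard error. The sign is the same in every row but the one that leaves CON rows in the deposited order, where the values are -0.067 and 0.0073.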

How the data were processed

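In the RPM table that the authors deposited there are 1926 miRNAs, with values in RPM, per the file headers, and each column sums to 1000000. Per the labels' protocols, RNA came from a column kit with DNase treatment and libraries from the QIAseq miRNA kit; the aligner, counter and any use of molecular identifiers are not given in the sources used here. Per the submitters' processing notes, the tools included DESeq2 and the build used was mm9. The authors' deposited table of fold changes gives, per the file headers, a base mean and a Wald statistic (scores), a log2 fold change and the standard error of it, and p-values; it was copied, not refitted.

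RPM values fell on steps of 1 read, to within 0.01 reads, with the lowest value of a column read as 2 reads. Reads recovered in this way were used for depth, intervals, floors of 3 reads and limma-voom. DESeq2 and edgeR were not used, since the unit is RPM and the reads rest on that reading. CON rows were put back by name: 6 times the base mean, minus the SE reads over their size factors, gives each miRNA's CON total. All 687 totals above 0 matched a CON row within 1e-05. When the 3 CON size factors were permuted, at most 3 of 312 totals did.

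The 2 groups were compared by limma-trend (limma 3.58.1 in R 4.3.3), fitted to log2(RPM + 1) of the 290 miRNAs whose mean reached 10 RPM, group as the factor, two-sided, with Benjamini-Hochberg adjustment and a threshold of 0.05. It was tested on simulated reads. Figures were drawn with matplotlib 3.10.9, and tables made with scipy 1.17.1, pandas 2.3.3 and numpy 2.4.6 in Python 3.11.15. The members, lists and tests were chosen with earlier results of these data known, and the pairs of close relatives after the values were seen. Named miRNAs were all rows of miR-146a and miR-146b, list members that passed or otherwise the 4 most abundant, miR-155-5p and miR-21a-5p, the 5 nearest profiles of each guide strand and its neighbours in level; others, such as some of the cell type markers, miR-222-3p and the other close pairs, were named after their values were seen. Alternatives were other pseudocounts (0.5 and 5 RPM), filters (none and 50 RPM), scalings, limma settings, the replicate number as a block, the CON rows as deposited, and each library left out.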

Additional observations from a re-analysis of the deposited data

How the results depend on the processing

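Under 15 of 16 alternatives miR-146a-5p and miR-146b-5p kept their signs and did not pass, with limma adjusted p of 0.150 to 0.872 for miR-146a-5p and 0.215 to 0.872 for miR-146b-5p. Their log2 fold changes ran from 0.46 to 0.90 and from -0.78 to -0.53 with each library left out in turn, and from 0.56 to 0.75 and from -0.70 to -0.58 under the other 9. With CON rows left in the deposited order, the values were -0.067 and 0.0073, the log2 ratio of the pair differed by -0.074 instead of 1.34 (pseudocount of 1 RPM), and 0 miRNAs were called by limma, 0 of them in the NF-kB induced list, with 2 at an unadjusted p under 0.05; this setting gives the members the CON reads of other miRNAs. With each library left out, the ratio difference ran from 1.12 to 1.62. The count of called miRNAs, 3, was 3 to 6 with each library left out: 6 without CON replicate 2 and 5 without CON replicate 3; the cause was not tested. The NF-kB induced list had 2 called under every other alternative, and the list of miRNAs that act on the pathway 0 to 2, with 2 without CON replicate 2. Median-of-ratios scaling moved the median of all miRNAs to 0.03, against -0.07, and gave 0.75 for miR-146a-5p and -0.58 for miR-146b-5p. The filter of 50 RPM leaves both strands untested. The replicate block left 3 calls, with limma adjusted p of 0.498 and 0.318 for the pair. Same-numbered libraries had correlations of deviations of -0.415, -0.249 and 0.0447, and differently numbered ones -0.195 to 0.418. With 3 libraries a group the deviations sum to 0, so these correlations depend on each other. They cannot decide whether the numbers pair the samples. DESeq2 and edgeR were not run, for the reason given under processing. With 87 to 379 reads a library, counting error alone is 6.41% to 9.22% of a group's values, which limits small differences.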
